A study of Mus musculus with 2 samples.

Results

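The VLDL assembly and secretion genes are 7 genes whose products build or export very low density lipoprotein (VLDL) in hepatocytes: Apob, Mttp, Tm6sf2, Sort1, Apobec1, Sar1b and Cideb. They were taken by gene symbol from the deposited expression tables, which cover 13326 symbols, and all 7 were found in 1 row each. Liver RNA came from Adipoq-/- mice (KO), which lack the gene for the fat cell hormone adiponectin, and from wild-type mice (WT). Both groups were males of strain C57BL/6J aged 12 weeks that had been fasted overnight, and no other allele or treatment is named in the labels. RNA of 9 to 10 mice of a genotype was combined before library preparation, which leaves 1 KO and 1 WT library. Differences between animals were therefore not measured, no test across samples was possible, and the comparison asks how far these transcripts differ between 1 KO and 1 WT pool.

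VLDL carries triglyceride and cholesterol from the liver to other tissues. Apolipoprotein B, the product of Apob, is lipidated while it enters the endoplasmic reticulum (ER), by a transfer protein whose large subunit is encoded by Mttp. Tm6sf2 and Cideb act on the later loading of the particle with lipid, Sar1b starts the coat of the vesicles that take it out of the ER, and sortilin (Sort1) binds apolipoprotein B in the Golgi. Apobec1 deaminates a cytidine in Apob mRNA, which turns a glutamine codon into a stop codon and yields the short protein ApoB48. In mice, unlike in humans, the liver edits Apob mRNA as well as the intestine.

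The base that Apobec1 edits lies in exon 26 of the 29 exons of Apob on chromosome 12. It is shown because 2 of the 7 genes, the enzyme and its substrate, meet at this site. In the longest coding transcript of GENCODE M21 (13934 bases) the glutamine codon is number 2179 of 4505 codons, stop codon included, so the edited message encodes 48.4% of the full protein. The stretch of 76 bases below runs 5′ to 3′. Its first capital is the edited C and the other capitals are the mooring sequence of 11 bases that the editing complex needs, placed 4 bases after that C.

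Apob editing site: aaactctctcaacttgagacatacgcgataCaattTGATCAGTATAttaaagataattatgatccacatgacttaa

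The 250 bases before the annotated start of Apob are shown because the human promoter has a close counterpart of the element in capitals, which binds the liver receptor HNF4A, one of the regulators measured here. They come from RefSeq (GRCm38.p6, chr12:7977427-7977676, plus strand). The first run of capitals, TGGACCTTT, begins at position -96 relative to the start, and the second, TATAAA, at position -60.

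Apob upstream sequence: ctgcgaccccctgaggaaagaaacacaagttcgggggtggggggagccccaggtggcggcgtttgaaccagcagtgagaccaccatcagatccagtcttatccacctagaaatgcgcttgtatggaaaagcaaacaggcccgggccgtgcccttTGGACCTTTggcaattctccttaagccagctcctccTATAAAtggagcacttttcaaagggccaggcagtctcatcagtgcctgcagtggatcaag

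TGGACCTTT, searched on both strands, was present in 0.231% of 32851 upstream windows of this length, and TATAAA, searched on the sense strand, in 7.59%. The motifs do not overlap each other. Upstream sequences of 5 of the 7 genes were matched in the RefSeq table. TGGACCTTT was found for Apob only among these 5, and TATAAA for Apob and Cideb. These are matches of letters and no measure of binding.

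Expression was given by the authors as FPKM, fragments scaled to transcript length and library size, which allows levels of different genes to be compared. Levels of the 7 genes spanned a wide range in both libraries. Sar1b, Apob and Cideb were abundant, at ranks 230, 392 and 472 by mean FPKM among the 11985 genes that reached 1 FPKM in either library. Mttp lay at rank 2223. Tm6sf2, Apobec1 and Sort1 were at ranks 4560, 5333 and 9357. The order of the genes by FPKM was the same in the KO and the WT library, but without replicates the spread between neighbours in this order is unknown.

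**Figure D1:**
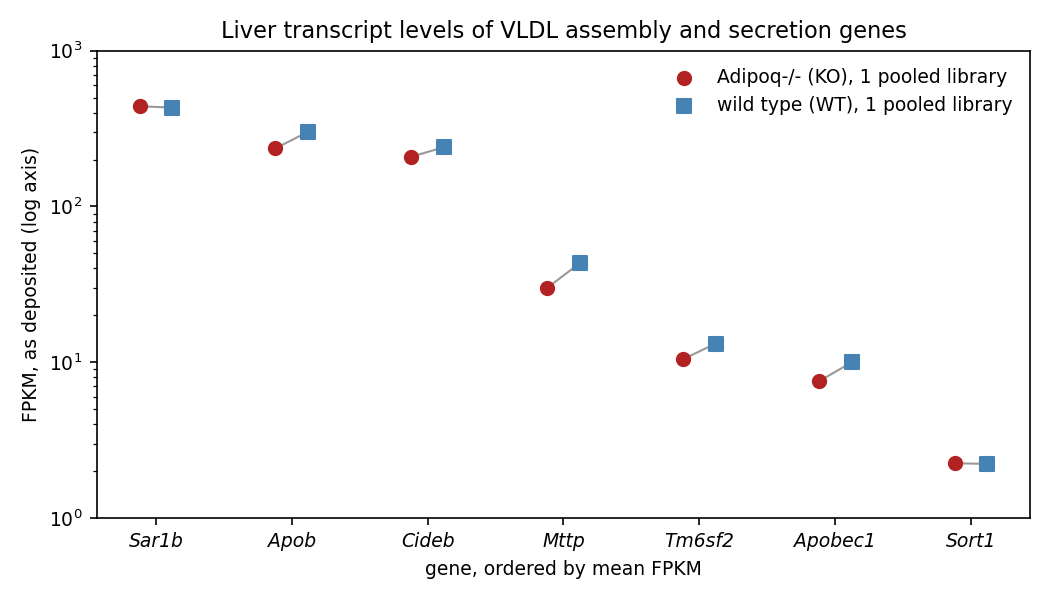
FPKM as deposited (log axis) of the 7 genes in the KO library (red circles) and the WT library (blue squares), ordered by mean FPKM, with 1 pooled library per genotype and no error bars. Apob, Cideb, Mttp, Tm6sf2 and Apobec1 are lower in KO, and Sar1b and Sort1 are nearly level.

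Of the 7 genes, 5 had a lower FPKM in the KO than in the WT library, and this share must be read against the whole table, where 66.9% of 11985 genes were lower in KO. The median log2((KO FPKM + 1)/(WT FPKM + 1)) over all these genes was -0.15. Ratios are therefore given below relative to that median, as centred log2 ratios, and the FPKM are left as deposited. Adding 1 FPKM understates the ratio of weakly expressed genes. On the centred scale, 5 of the 7 genes lay below the all-gene median, as did 50.0% of all genes. Their list median was -0.16, beside 0.00 over all genes. None of the 7 reached 1.5-fold in either direction, a size passed downward by 2.61% and upward by 6.73% of all genes (313 and 806). The centred ratios of the 7 ran between -0.36 and 0.18, beside an interquartile range of -0.18 to 0.25 over all genes, and Mttp, Apobec1 and Apob lay below that range.

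Apob, which encodes the structural protein of the particle, stood at 236 FPKM in the KO and 302 FPKM in the WT library. The KO value was 0.782 of the WT value, and the centred log2 ratio was -0.20, at percentile 22.4 of all genes. Mttp, which encodes the lipid transfer subunit, had the lowest ratio of the 7, with 30.0 FPKM in KO and 43.2 FPKM in WT. Its KO value was 0.694 of the WT value, and its centred log2 ratio of -0.36 was at percentile 9.46. Both genes of the first lipidation step were thus lower in KO, Mttp by more than Apob. Within a library, Mttp came to 0.127 of the Apob level in KO and 0.143 in WT. P4hb, the protein disulfide isomerase that forms the small subunit of the transfer protein, was nearly level, at 307 FPKM in KO and 329 FPKM in WT (centred log2 ratio 0.05). The Mttp level was 0.0978 of the P4hb level in KO and 0.131 in WT.

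Tm6sf2, an ER and Golgi membrane protein needed for full lipidation of VLDL, was at 10.4 FPKM in KO and 13.2 FPKM in WT. Its centred log2 ratio was -0.16. The ratio of Tm6sf2 to Apob FPKM was almost equal in the libraries, 0.0442 in KO and 0.0436 in WT. Cideb, a lipid droplet and ER protein that takes part in VLDL loading, was at 208 FPKM in KO and 240.4 FPKM in WT. Its centred log2 ratio was -0.05, at percentile 42.3, so it was lower in KO as deposited and near the median of all genes.

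Apobec1 was at 7.53 FPKM in KO and 9.95 FPKM in WT, a KO value of 0.757 of WT. Its centred log2 ratio was -0.21, at percentile 21.6. One FPKM value per gene does not separate edited from unedited Apob mRNA, so the edited share at the site printed above was not measured.

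Sar1b, the small GTPase of the ER exit coat, and Sort1, the sorting receptor, differed from the other 5 in lying above the all-gene median. Sar1b was at 440.0 FPKM in KO and 431 FPKM in WT, with a centred log2 ratio of 0.18. Sort1 was at 2.24 FPKM in KO and 2.22 FPKM in WT, with a centred log2 ratio of 0.16. As deposited, both were within 2.01% of equal levels. The sign of their centred ratio rests on the scaling: with FPKM rescaled to equal sums the log2 ratio was -0.13 for Sar1b and -0.10 for Sort1, and relative to genes of like mean FPKM it was -0.08 for Sar1b.

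Overlapping genes and close copies can share reads. Of the stretches of 36 bases in the longest coding transcript of each gene, 64.8% of those of Cideb are also held, on the opposite strand, by transcripts of Nop9. Nop9, listed under an older symbol, was at 6.53 FPKM in KO and 7.99 FPKM in WT, far below Cideb. Whether the counting used strand is not given in the sources used here. For Sort1 and Mttp, 4.47% and 2.55% of such stretches are shared with an antisense transcript, for Apobec1 0.359% are shared with other genes, and Apob, Tm6sf2 and Sar1b share none with any other annotated gene. Sar1b therefore holds no stretch of this size in common with its paralog Sar1a.

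The 7 genes differ widely in transcript length, which moved with the ratio over the whole table. When 11571 genes with a known length were put into 10 bins of equal size, the median centred log2 ratio was 0.40 in bin 1, which holds the shortest transcripts, and -0.12 in bin 10, which holds the longest. Apob, at 13.9 kb, and Sort1, at 6.84 kb, fall in bin 10. Sar1b (1.20 kb), Cideb (1.21 kb) and Tm6sf2 (1.45 kb) fall in bin 3, whose median was 0.09. Relative to the median of their own bin, the log2 ratio was -0.09 for Apob, -0.26 for Mttp, -0.25 for Tm6sf2, -0.18 for Apobec1 and -0.15 for Cideb, and it was 0.09 for Sar1b and 0.28 for Sort1. The ratio of Apob was thus less than 0.1 from that of genes of like length, whereas Tm6sf2 and Cideb lay farther below such genes than below all genes. Within its bin, Mttp stood at percentile 14.1, Tm6sf2 at 16.6, Apobec1 at 21.3, Cideb at 29.0, Apob at 31.0, Sar1b at 63.3 and Sort1 at 86.3. On this scale 5 of 7 genes lay below 0, with a list median of -0.15. None of the 7 reached 1.5-fold on it, a size passed downward by 2.84% and upward by 3.12% of the genes with a length.

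**Figure D2:**
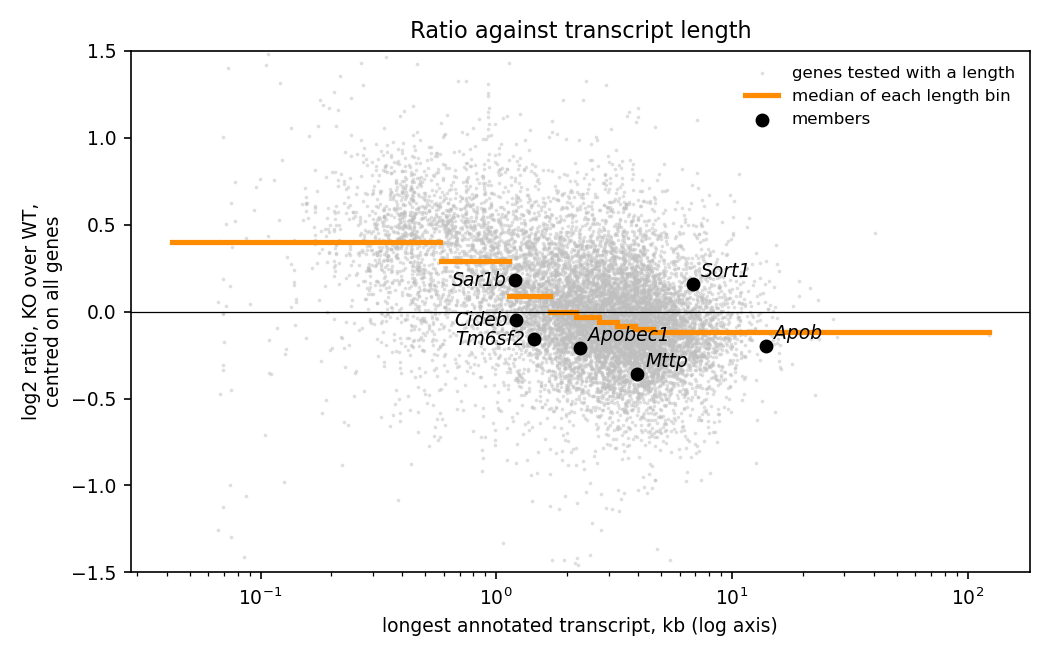
Centred log2 ratio (KO over WT) against the longest annotated transcript in kb (log axis) for genes tested with a length (grey), with the median of each length bin (orange) and the 7 genes (black). 11543 genes are drawn and 28 lie beyond the axis limits of 1.5 in either direction. Apob sits near the median of bin 10, and Mttp and Tm6sf2 sit below the medians of theirs.

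Abundance moved with the ratio too. The interquartile range of centred log2 ratios was -0.04 to 0.48 among the 1782 most abundant genes (mean of 50 FPKM or more) and -0.20 to 0.15 among the 4610 genes with means of 1 to 5 FPKM. Relative to genes of like mean FPKM (20 bins), the log2 ratio was -0.46 for Apob, -0.46 for Mttp, -0.31 for Cideb, -0.20 for Apobec1 and -0.14 for Tm6sf2, beside 0.20 for Sort1. Relative to genes of like length and like mean FPKM together (5 bins of each), it was -0.31 for Mttp, -0.20 for Tm6sf2, -0.16 for Cideb, -0.15 for Apobec1 and -0.13 for Apob, beside 0.07 for Sar1b and 0.30 for Sort1. This last scale was chosen after seeing the data. Mttp was the lowest or level with the lowest of the 7 on each of these scales, and Apob, Mttp, Tm6sf2, Apobec1 and Cideb were below 0 on each. The part of length and abundance in these ratios was not tested further.

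**Figure D3:**
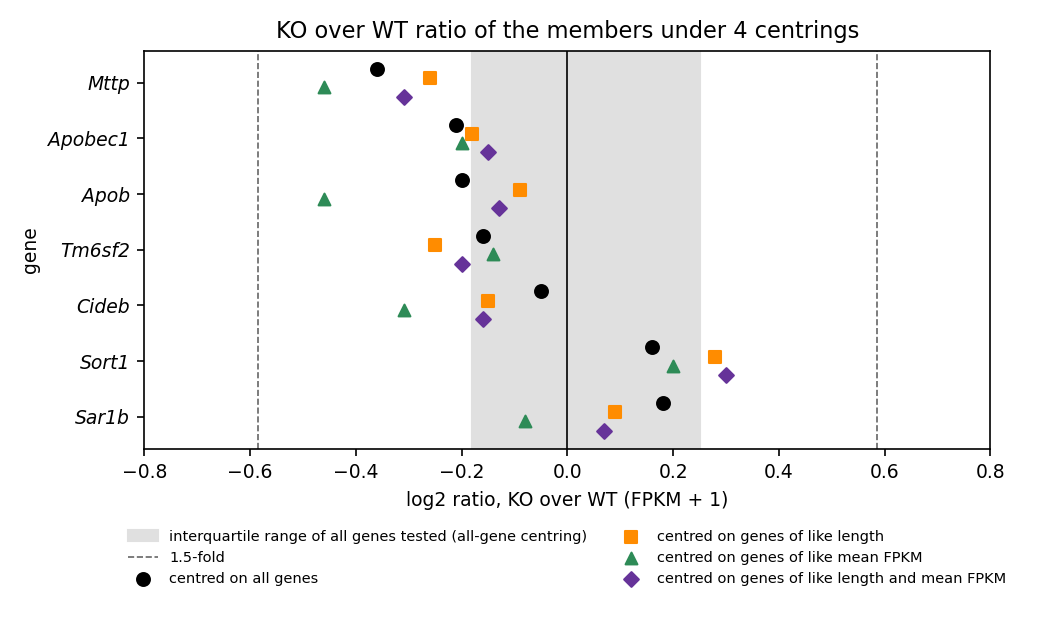
Log2 ratio (KO over WT, FPKM + 1) of the 7 genes centred on all genes (circles), on genes of like length (squares), on genes of like mean FPKM (triangles) and on genes of like length and mean FPKM (diamonds). The grey band is the interquartile range of all genes tested and dashed lines mark 1.5-fold, and all points lie inside those lines, with Mttp farthest to the left except on the triangles, where Apob is at the same value of -0.46.

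The other genes of the pathway are described by lists that were chosen with earlier results of these data known. Of the partners of Apobec1, 7 of 7 tested genes lay below the all-gene median, with a list median of -0.29 (-0.19 relative to genes of like length, with 6 of 7 below 0, and -0.25 relative to genes of like mean FPKM). A1cf, the RNA-binding subunit that docks the enzyme on the mooring sequence, was at 12.9 FPKM in KO and 20.5 FPKM in WT (centred log2 ratio -0.48). Rbm47, an RNA-binding protein that can take part in editing, was at 5.71 FPKM in KO and 8.74 FPKM in WT (-0.39). Syncrip, another RNA-binding partner, was at 1.42 FPKM in KO and 2.77 FPKM in WT (-0.49), and Hnrnpab, the most abundant of the list, at 24.9 FPKM in KO and 29.5 FPKM in WT (-0.08). On the centred scale, with 1 FPKM added, none of the 7 was 1.5-fold lower. As deposited, uncentred and without the added 1 FPKM, KO over WT was 0.511 for Syncrip, 0.627 for A1cf and 0.653 for Rbm47. It was 0.633 to 0.844 for the rest of the list. The median of KO over WT over all genes, with 1 FPKM added, was 0.900. Other lists held values of this size too, such as 0.637 for Sec24d of the COPII list. No calls were made on the deposited scale, because the share of all genes on it was not counted. Apobec1 was 0.585 of the A1cf level in KO and 0.484 in WT.

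Among 22 tested genes of the COPII coat and ER exit, through which Sar1b acts, 18 lay below the all-gene median. The list median was -0.18, and none reached 1.5-fold on the centred scale. Creb3l2, counted among the 18, reached 1 FPKM only in WT (0.586 FPKM in KO and 1.36 FPKM in WT), so the minimum bears on its direction. A minimum of 5 FPKM leaves out Creb3l2, Klhl12 and Svip, and it also centres the ratios on a smaller set of genes. Under it the list median was -0.22, while the ratio of Apob moved from -0.20 to -0.24. The lower list median can therefore not be credited to leaving out Creb3l2. The cargo-binding coat subunit Sec24d lay lowest, at 8.30 FPKM in KO and 13.03 FPKM in WT (-0.44). Sec13, a subunit of the outer coat, lay highest at 55.9 FPKM in KO and 51.7 FPKM in WT (0.26). Mcfd2, part of a cargo receptor, was the most abundant at 179 FPKM in KO and 167 FPKM in WT (0.25). Transcripts of this list are long, with a median of 4.33 kb, and relative to genes of like length the list median was -0.07, with 15 of 22 below 0. Mia2 and Ctage5, which RefSeq joins into 1 gene, were listed separately. Sar1a, the paralog of Sar1b, was at 24.4 FPKM in KO and 26.9 FPKM in WT (0.01), so Sar1b stood at 18.0 times the Sar1a level in KO and 16.0 times in WT.

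The genes that supply lipid to the particle were spread to both sides, with 11 of 19 below the all-gene median and a list median of -0.13 (-0.29 relative to genes of like mean FPKM). On the centred scale, 2 of these were at least 1.5-fold lower and none 1.5-fold higher, sizes passed by 2.61% and 6.73% of all genes. The lipid droplet coat Plin2 was at 408 FPKM in KO and 722 FPKM in WT (centred log2 ratio -0.67). Lpcat3, which loads polyunsaturated acyl chains into phosphatidylcholine, was at 67.1 FPKM in KO and 115 FPKM in WT (-0.61); it was named after its value was seen. Dgat1 and Dgat2 make triglyceride. Dgat1 was at 10.3 FPKM in KO and 15.7 FPKM in WT (-0.41), and Dgat2 at 109 FPKM in KO and 132 FPKM in WT (-0.12). Soat2, which esterifies cholesterol, was at 9.24 FPKM in KO and 13.8 FPKM in WT (-0.38). The lipase Aadac was the most abundant at 648 FPKM in KO and 705 FPKM in WT (0.03). Abhd5, the coactivator of triglyceride lipolysis, lay highest at 30.7 FPKM in KO and 24.0 FPKM in WT (0.49).

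Of the apolipoproteins that ride on VLDL, 6 of 8 lay above the all-gene median, though Apoh (0.00) and Apoa4 (0.04) were close to it. As deposited, 4 of the 8 were lower in KO. The list median was 0.21, and 2 were at least 1.5-fold higher (Apoc4 and Apoc2), a size passed by 6.73% of all genes. Apoc4 was at 3374 FPKM in KO and 2326 FPKM in WT (centred log2 ratio 0.69), and Apoc2, named after its value was seen, at 883 FPKM in KO and 649 FPKM in WT (0.59). Relative to genes of like length the ratio was 0.69 for Apoc4 and 0.30 for Apoc2, and relative to genes of like mean FPKM 0.43 for Apoc4 and 0.34 for Apoc2. As deposited, uncentred, it was 0.54 for Apoc4 and 0.44 for Apoc2, so the first of these scales leaves 1 gene past 1.5-fold and the others leave none. The value of Apoc4 on the first scale rests on a length of 2.10 kb. That is its longest annotated transcript of any type, and whether the liver mRNA has this length was not tested. Apoa5, which raises lipoprotein lipase action, was at 205 FPKM in KO and 282 FPKM in WT (-0.31). Apoe, a ligand for remnant uptake, was the most abundant at 15783 FPKM in KO and 19450.3 FPKM in WT (-0.15). These transcripts are short (median 1.30 kb), and relative to genes of like length the list median was 0.01 and 4 of 8 lay below 0. The list median was 0.03 relative to genes of like mean FPKM, -0.10 with FPKM rescaled to equal sums and -0.07 relative to genes of like length and mean FPKM.

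The folding partners of apolipoprotein B had 7 of 12 genes below the all-gene median and a list median of -0.08 (-0.26 relative to genes of like mean FPKM). The chaperone Hsp90b1 was at 169 FPKM in KO and 234 FPKM in WT (-0.31), and calreticulin (Calr) at 368 FPKM in KO and 369.7 FPKM in WT (0.14). Cyclophilin B (Ppib) was at 389 FPKM in KO and 239.9 FPKM in WT (0.85). It was the only one of the list at 1.5-fold, a size passed upward by 6.73% of all genes. In the list on degradation of apolipoprotein B, 10 of 13 were below the median, with a list median of -0.08, beside 0.00 relative to genes of like length and -0.19 relative to genes of like mean FPKM. Its lowest member was Sel1l, a subunit of an ER ubiquitin ligase (11.4 FPKM in KO and 17.8 FPKM in WT, -0.45), and its highest and most abundant was Bcap31 (94.8 FPKM in KO and 97.6 FPKM in WT, 0.11). For the sortilin family and sorting to the lysosome, 6 of 10 were below the median (list median -0.11, and 0.01 relative to genes of like length). The retromer subunit Vps26a was at 11.9 FPKM in KO and 16.3 FPKM in WT (-0.26), the adaptor Gga3 at 2.69 FPKM in KO and 2.06 FPKM in WT (0.42) and the GTPase Arf1 at 110.0 FPKM in KO and 109 FPKM in WT (0.16). Sorl1, a relative of Sort1, was below 1 FPKM in both libraries (0.469 in KO and 0.692 in WT).

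Of the close relatives of the members, Cidec and Cidea, the other CIDE proteins, which promote the growth of lipid droplets, were far less abundant than Cideb in both libraries. Cidec was at 0.913 FPKM in KO and 4.73 FPKM in WT (centred log2 ratio -1.43) and Cidea at 0.146 FPKM in KO and 1.03 FPKM in WT (-0.67), both at least 1.5-fold lower on this scale. Cideb, with its centred ratio of -0.05, was thus 228 times the Cidec level in KO and 50.9 times in WT. Tm6sf1, the paralog of Tm6sf2, was at 1.47 FPKM in KO and 0.607 FPKM in WT (0.77). Cidec and Cidea reached 1 FPKM only in WT and Tm6sf1 only in KO, so the minimum of 1 FPKM in either library bears on the direction in which each could differ. The list of close relatives holds 4 tested genes, these among them, and its median was -0.33. With no minimum, which adds Sorl1 to the list, the median was -0.06. It was -0.99 with a pseudocount of 0.1 FPKM and -0.52 with 0.5 FPKM. The difference between these paralogs and the members was not tested, as each genotype had 1 library.

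Among 17 tested transcriptional regulators known to act on genes of this pathway, 13 lay below the all-gene median. The list median was -0.14, and 1 gene was at least 1.5-fold lower, a size passed by 2.61% of all genes. Relative to genes of like length the list median was -0.08, with 9 of 17 below 0. The gene past 1.5-fold was Mlxipl, which encodes the carbohydrate response factor ChREBP, at 16.5 FPKM in KO and 31.3 FPKM in WT (-0.73). Hnf4a was at 71.9 FPKM in KO and 91.0 FPKM in WT (-0.18). Foxa2 was at 3.92 FPKM in KO and 6.11 FPKM in WT (-0.38), and Foxo1, which activates Mttp during fasting, was at 0.693 FPKM in KO and 1.01 FPKM in WT (-0.10). Foxo1 reached 1 FPKM only in WT, so the minimum bears on the direction in which it could differ. With a minimum of 5 FPKM, which leaves out Foxo1, Prox1 and Esr1, the list median was -0.19. That setting also centres the ratios on a smaller set of genes, so the shift cannot be credited to leaving out Foxo1. The sterol response factor Srebf1, the most abundant of the list, was at 194 FPKM in KO and 218 FPKM in WT (-0.01), and the liver X receptor Nr1h3, the highest, at 59.3 FPKM in KO and 57.9 FPKM in WT (0.19).

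For uptake and lipolysis of VLDL and its remnants, 9 of 14 genes lay below the all-gene median, with a list median of -0.07 (-0.02 relative to genes of like length and -0.19 relative to genes of like mean FPKM). The phospholipid transfer protein Pltp (24.5 FPKM in KO and 76.8 FPKM in WT, -1.46) was the only one 1.5-fold lower. Gpihbp1, which holds lipoprotein lipase on capillary walls, was the only one 1.5-fold higher (43.3 FPKM in KO and 27.04 FPKM in WT, 0.81). Over all genes, 2.61% were at least 1.5-fold lower and 6.73% at least 1.5-fold higher.

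**Figure D4:**
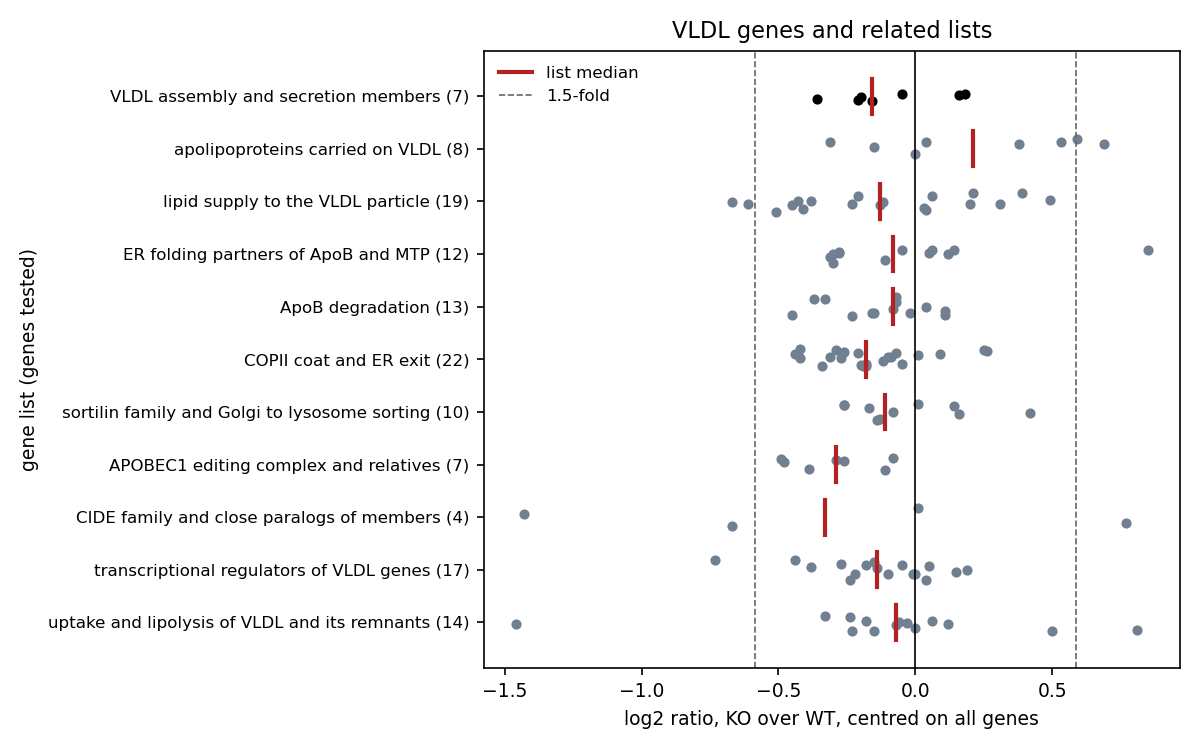
Centred log2 ratio (KO over WT) of each tested gene (points) in the 7-gene set at the top and in 10 related lists, with list medians (red bars) and dashed lines at 1.5-fold; vertical scatter within a row has no meaning. The 7 genes lie inside 1.5-fold, and the Apobec1 partners lie to the left of 0 throughout. Cidec, which reached 1 FPKM only in WT, and Pltp are the points farthest left.

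Over all genes, summed FPKM came to 891964 in KO and 798170 in WT, and sequencing depth is unknown. The targeted gene, Adipoq, was not analysed here, so it gives no check of the labels. In pooled tissue, fewer cells of a type and less RNA per cell cannot be told apart. Hepatocyte markers showed the labelled tissue, with 11 tested genes summing to 66072 FPKM in KO and 70428 FPKM in WT and a median centred log2 ratio of 0.01. Relative to genes of like mean FPKM, the scale on which Apob and Mttp were at -0.46, the median of these markers was -0.25. Kupffer cell markers summed to 200.7 FPKM in KO and 194 FPKM in WT (median 0.27, 9 of 11 above 0), endothelial markers to 85.8 FPKM in KO and 80.6 FPKM in WT (0.08, 6 of 10), stellate cell markers to 96.1 FPKM in KO and 92.7 FPKM in WT (0.27, 5 of 7) and cholangiocyte markers to 27.5 FPKM in KO and 20.5 FPKM in WT (0.12, 4 of 4). Relative to genes of like length these medians were 0.09 for Kupffer, 0.20 for endothelial, 0.31 for stellate cell and 0.12 for cholangiocyte markers. With FPKM rescaled to equal sums they were -0.04, -0.20, 0.00 and -0.12 in the same order. Lyve1 of the endothelial markers reached 1 FPKM only in WT, and Des of the stellate cell markers only in KO. Of 9 listed adipocyte markers 3 were tested, and their sum of 1470.0 FPKM in KO and 2160.3 FPKM in WT was nearly all Car3, which hepatocytes also express. Cfd, a defining adipocyte marker, was at 2.01 FPKM in KO and 13.3 FPKM in WT. Fabp4, the other marker tested, went the other way, at 10.95 FPKM in KO and 9.61 FPKM in WT. Enterocytes also make Apob and Mttp. Of 12 listed markers only 2 had a deposited value, Fabp2 (142 FPKM in KO and 183 FPKM in WT) and Anpep (15.9 FPKM in KO and 19.99 FPKM in WT). No amount of intestinal tissue can be read from these 2. The part of other cell types in the ratios of the 7 genes was not tested.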

How the data were processed

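Liver mRNA was profiled in 1 KO and 1 WT library, each from RNA pooled over 9 to 10 mice, per the labels' protocols. The authors deposited FPKM, 1 value per gene symbol. The submitters' processing notes name TopHat, Cuffdiff and the mouse builds mm9 and NCBIM37. Versions, annotation, strand setting and row filters: not given in the sources used here. Samples were grouped by genotype label. Where a symbol had 2 rows (26 symbols), the higher row by mean FPKM was used. Ratios were log2((KO + 1)/(WT + 1)) for the 11985 genes that reached 1 FPKM in either library, centred on their median, with 1.5-fold as the threshold. They were computed in Python 3.11.15 with pandas 2.3.3. Centring, calls and length correction were tested on simulated data, without the added 1 FPKM and only for genes of at least 5 FPKM in WT. With 1 library per genotype there is no p-value and no replicate check.

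Low values showed no steps of whole reads (of 1298 genes above 0 and below 1 FPKM in both libraries, no more than 5 shared a log2 ratio to 3 decimals), so depth is unknown and no counting interval is given. Lengths are of the longest GENCODE M21 transcript, matched for 11571 genes (96.5%), 962 of them through an older symbol. Shared stretches were sought at 36 bases, a size chosen here, on both strands.

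The 7 genes, the related lists and the alternatives were chosen with earlier results of these data known. Named genes are the 7, the lowest, highest and most abundant of each related list, close paralogs, and a few partners. 1 gene named by this rule is not reported here. Alternatives were pseudocounts of 0.1 and 0.5, no minimum or a minimum of 5 FPKM, other scalings and centrings, and summed rows.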

Additional observations from a re-analysis of the deposited data

How the results depend on the processing

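The list median of the 7 genes stayed below 0 under all 12 alternatives, between -0.45 and -0.09. It moved by more than 0.1, the tolerance set for want of replicates, with FPKM as deposited (-0.31) and rescaled to equal sums (-0.45), since those scalings move the median of all genes to -0.15 and -0.28. Rescaling to equal sums also put 1 of the 7, Mttp at -0.67, past 1.5-fold. Of the 7, 5 to 7 lay below 0 under every alternative, none was 1.5-fold higher, and 7 to 10 of the 10 related list medians were below 0, against 9 as reported. The 10 lists include that of close relatives, whose median rests in part on genes that reached 1 FPKM in only 1 library. Over all genes the calls at 1.5-fold were 806 higher and 313 lower as reported, 387 and 739 with FPKM as deposited, 182 and 1495 with equal sums, 530 and 525 with equal upper quartiles, 361 and 329 after length correction, 639 and 349 within 20 bins of mean FPKM, 393 and 283 within 5 bins each of length and mean FPKM, 1141 and 707 with a pseudocount of 0.1, 974 and 473 with 0.5, and 476 and 227 with a minimum of 5 FPKM. Sort1, at 2.24 FPKM in KO, has no value under that minimum. No paired analysis was possible because each genotype had 1 library.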
